A study of Mus musculus with 4 samples.

Results

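Cadherins and non-clustered protocadherins are the calcium-dependent adhesion molecules examined here, in tdTomato-labelled amacrine cells of the early postnatal mouse retina. They were taken as 40 genes by symbol: 5 type I and 13 type II classical cadherins, Cdh13, Cdh23 and Pcdh15, 9 delta protocadherins, Pcdh12 and Pcdh20, 3 Celsr genes, and 5 Fat and Dachsous genes. All 40 were found among the 55471 genes of the count table, of which 27925 had a count in any library. The members were chosen by family membership, with earlier results of these data known.

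Amacrine cells are the inhibitory interneurons of the inner retina. The mice carried Gbx2-CreERT2-IRES-EGFP, in which the Gbx2 gene, encoding a homeodomain transcription factor, drives a tamoxifen-dependent Cre and GFP, together with Ai9, a Cre-dependent tdTomato reporter. The strain was C57BL6 and the age postnatal day 6 to 7, and every library came from retinal cells that had been sorted for tdTomato. Cells still carrying GFP gave the GFP-positive libraries, replicates 2 and 3, and cells without GFP gave the GFP-negative libraries, replicates 2 and 6. Each library was made from bulk RNA of 750 to 2500 sorted cells. The study states 4 biological replicates from 3 litters, with both fractions taken from each animal; the 4 libraries analysed here are those of replicates 2, 3 and 6. The fractions are thus defined by reporter expression from 1 locus at the time of sorting, and the sources used here do not give when Cre was induced. Because the RNA is from pools of cells, fewer cells expressing a gene and less RNA per cell cannot be told apart.

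Classical cadherins bind the same or closely related cadherins on neighbouring cells and connect through catenins to actin, and type II members are known in mouse retina for guiding neurites to their sublaminae. Delta protocadherins adhere more weakly, and several act by altering the surface level of classical cadherins or by recruiting actin regulators. Celsr proteins act in planar polarity and axon growth, and Fat and Dachsous proteins are very large cadherins that bind each other across cell contacts.

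Libraries held 41040667 to 44689917 counts. Gbx2, the gene behind the sort, had 602.0 and 496.2 CPM (counts relative to the scaled total of the library) in GFP-positive cells, against 28.7 and 55.5 CPM in GFP-negative cells, which matches the labels. The pan-amacrine gene Pax6 ranged from 1286 to 1972 CPM in GFP-positive cells and 1469 to 2245 CPM in GFP-negative cells. Transcripts of other retinal cells were present in both fractions. The sum of 12 rod markers was 8970 and 14983 CPM in GFP-positive libraries (replicates 2 and 3), against 7764 and 1916 CPM in GFP-negative libraries (replicates 2 and 6). All 12 had a log2 fold change above 0, 4 had an unadjusted p below 0.05, and edgeR, DESeq2 and limma-voom called none.

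Of the 40 members, 34 had enough counts to be tested, and 8 of them changed between the fractions. Pcdh8 was higher in GFP-positive cells. Cdh8, Cdh10, Cdh12, Pcdh9, Pcdh18, Pcdh19 and Pcdh20 were lower. The 8 calls were 23.5% of the tested members, beside 198 calls among 17940 tested genes, or 1.1% (edgeR's quasi-likelihood test, Benjamini-Hochberg adjusted p below 0.05, n = 2 libraries per fraction). Among all tested genes, 0.234% were called higher and 0.87% lower. The fractions did not overlap in CPM for 26 tested members, 7 of them higher in GFP-positive cells and 19 lower, which is 76.5% of the tested members, beside 43.8% of all tested genes. The median log2 fold change of the tested members was -0.72, and that of all tested genes was 0.04. Because the members were chosen with earlier results of these data known, these shares and medians are descriptive. With 2 libraries against 2, the smallest p that an exact two-sided permutation of 1 gene allows is 0.333, so the calls rest on the spread that edgeR estimates across genes, with a common biological coefficient of variation of 55.4%.

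**Figure D1:**
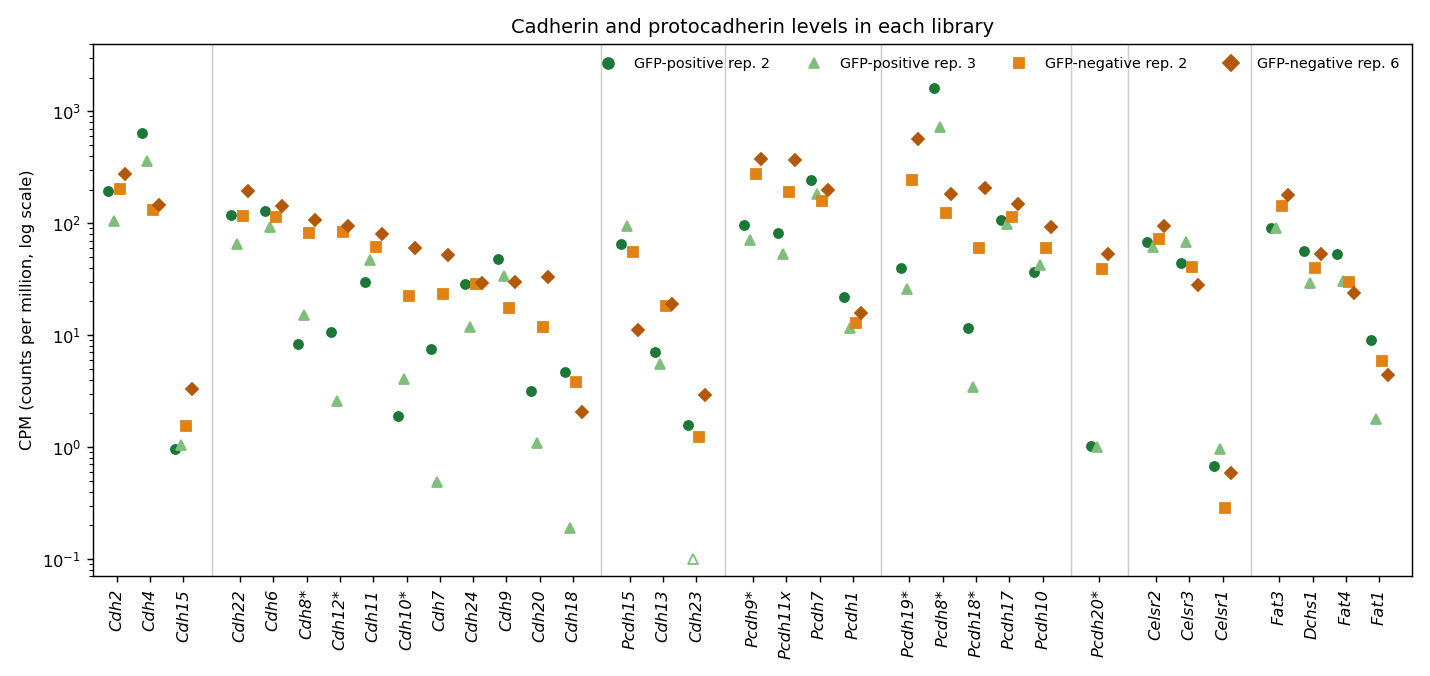
Level of each of the 34 tested members in each library, as CPM on a log scale. Members are grouped by family and ordered by mean CPM in GFP-negative cells within a family. Asterisks mark the 8 called members, and the open triangle at the bottom stands for a count of 0 (Cdh23 in GFP-positive replicate 3). Pcdh8 at 1609 and 719 CPM in GFP-positive cells is the highest pair of points, and the 2 GFP-positive points of Pcdh20 lie at 1.03 and 1.01 CPM.

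Pcdh8 and Pcdh20 had the extreme fold changes of the family, one in each direction, and their promoters are shown for that reason. Both lie on chromosome 14, on the minus strand, with a gap of 8.69 Mb between them. The sequences are the 250 bases before the annotated start from RefSeq (GRCm38.p6), at chr14:79771313-79771562 for Pcdh8 and chr14:88471397-88471646 for Pcdh20, both on the minus strand and written 5′ to 3′, and capitals mark the TATA box letters TATAAA.
Pcdh8: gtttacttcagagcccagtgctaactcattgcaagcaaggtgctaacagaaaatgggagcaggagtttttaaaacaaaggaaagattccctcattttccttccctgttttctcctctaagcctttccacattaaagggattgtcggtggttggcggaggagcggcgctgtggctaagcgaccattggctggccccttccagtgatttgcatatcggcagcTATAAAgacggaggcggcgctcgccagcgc
Pcdh20: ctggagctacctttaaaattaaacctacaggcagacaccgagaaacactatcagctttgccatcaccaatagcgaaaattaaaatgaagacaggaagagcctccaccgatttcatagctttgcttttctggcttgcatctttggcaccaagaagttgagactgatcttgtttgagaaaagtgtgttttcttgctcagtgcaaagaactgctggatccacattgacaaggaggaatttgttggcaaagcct
TATAAA, searched on both strands, lies 30 bases before the start of Pcdh8 and does not occur in the window of Pcdh20. It occurs in 12.4% of the 32851 mouse windows of this length. RefSeq windows were matched for 27 members, and Pcdh15 is the only other one of them with these letters. The homeodomain core TAATTA is in none of the windows of the 8 called members and in 4.84% of all windows. The GC content is 51.2% in the Pcdh8 window and 42.4% in that of Pcdh20, beside a median of 52.4% over all windows.

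Pcdh8, also called arcadlin, is a delta2 protocadherin known from rodent hippocampal neurons for promoting internalisation of N-cadherin. It had 1609 and 719 CPM in GFP-positive replicates 2 and 3, against 123 and 182 CPM in GFP-negative replicates 2 and 6. Both GFP-positive libraries lay above both GFP-negative ones, although the GFP-positive libraries differed 2.24-fold from each other. The means were 1164 ± 629 CPM in GFP-positive and 152 ± 41.8 CPM in GFP-negative cells (SD, n = 2 each), a 7.65-fold difference with a log2 fold change of 2.93 ± 0.50 (SE; edgeR adjusted p = 0.0345). Without any 1 of the 4 libraries its log2 fold change was between 2.22 and 3.40 and its adjusted p between 0.0857 and 0.192, so the call depends on all of them. The gene lies at chr14:79766775-79771312 (GRCm38), where 436 exonic bases are shared with Gm9748, an annotated antisense gene with 63 and 10 counts in GFP-positive and 11 and 5 counts in GFP-negative libraries. The sources used here do not say whether strand was used in counting.

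Pcdh19 and Pcdh18, the other delta2 members that changed, were lower in GFP-positive cells. Pcdh19, an X-linked gene mutated in a human epilepsy that mainly affects females, had 39.6 and 25.8 CPM in GFP-positive cells, against 242.5 and 568.1 CPM in GFP-negative cells. Its fractions were far apart, and GFP-negative replicate 6 was the highest (log2 fold change -3.63 ± 0.50, edgeR adjusted p = 0.0154). Pcdh18 had 11.7 and 3.45 CPM in GFP-positive cells, against 59.9 and 205.1 CPM in GFP-negative cells (log2 fold change -4.13 ± 0.72, edgeR adjusted p = 0.0371). Its libraries were also unequal within both fractions, by 3.39-fold between the GFP-positive and 3.42-fold between the GFP-negative libraries. Pcdh19 lies at chrX:133582860-133688987 and Pcdh18 at chr3:49743296-49757325. Pcdh17 and Pcdh10, which are delta2 members that bind actin regulators through their cytoplasmic tails, did not pass the test, with log2 fold changes of -0.34 ± 0.30 and -0.96 ± 0.33. The delta2 genes thus divided into 1 higher, 2 lower and 2 not called.

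The length-scaled ratio of Pcdh8 to Pcdh19, chosen after the values were seen, was 93.7 and 64.2 in GFP-positive cells, against 1.17 and 0.74 in GFP-negative cells. The ratio of Pcdh8 to Pcdh17, its neighbour on chromosome 14, was 43.0 and 20.7 in GFP-positive cells and 3.11 and 3.49 in GFP-negative cells. In every GFP-negative library Pcdh8 and Pcdh19 were thus at similar levels per kilobase of exon, and in every GFP-positive library Pcdh8 was far above Pcdh19.

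Among the 4 delta1 protocadherins, which carry a conserved motif for protein phosphatase 1, 1 was lower in GFP-positive cells and none was higher. Pcdh9 had 95.8 and 70.3 CPM in GFP-positive cells, against 274.1 and 375.9 CPM in GFP-negative cells, with the smallest standard error of the 8 called members (log2 fold change -1.97 ± 0.35, edgeR adjusted p = 0.0408). Pcdh11x, a second X-linked protocadherin, had 82.2 and 53.2 CPM in GFP-positive cells, against 189.9 and 368.8 CPM in GFP-negative cells, and its log2 fold change of -2.04 ± 0.42 missed the threshold (edgeR adjusted p = 0.0705). Its fractions did not overlap, and it was called with RLE scaling (adjusted p = 0.0427), with upper-quartile scaling (0.0415), with a stricter filter on low counts (0.0349) and by DESeq2 (0.000325). Pcdh7, with 242.3 and 183.1 CPM in GFP-positive cells and 156.6 and 197.4 CPM in GFP-negative cells, had overlapping fractions (log2 fold change 0.27 ± 0.33), and Pcdh1 likewise (0.24 ± 0.45). Pcdh7 shares 2235 exonic bases with an opposite-strand gene, 4932441J04Rik, which had 131 and 86 counts in GFP-positive libraries and 63 and 46 counts in GFP-negative libraries. The Y-linked gene Ddx3y was at 90.6 and 168.1 CPM in GFP-positive and 90.4 and 89.8 CPM in GFP-negative libraries, so transcripts of the Y chromosome were present in all 4.

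Pcdh20 showed the largest fold change of the 34 tested members. It had 1.03 and 1.01 CPM in GFP-positive cells, from 47 and 48 counts, against 38.8 and 52.8 CPM in GFP-negative cells, from 1624 and 1891 counts. Its mean was 45.0-fold lower in GFP-positive cells, and replicates within each fraction were close (log2 fold change -5.49 ± 0.48, edgeR adjusted p = 0.0107). It passed the test in 11 of 13 alternative fits, the most of any member, and missed it when GFP-positive replicate 3 or GFP-negative replicate 6 was left out, with adjusted p up to 0.0711. The gene lies at chr14:88464743-88471396. Pcdh12, a protocadherin of endothelium, had 0 and 110 counts in GFP-positive replicates 2 and 3, against 5 and 1 counts in GFP-negative replicates 2 and 6, and was not tested.

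Pcdh8, Pcdh17, Pcdh20 and Pcdh9 follow each other in this order along 14.1 Mb of chromosome 14 (GRCm38), and Pcdh9 spans chr14:93013410-93890679. Along that stretch, the log2 fold change was 2.93 for Pcdh8, -0.34 for Pcdh17, -5.49 for Pcdh20 and -1.97 for Pcdh9. The members with the highest and the lowest fold change thus lie on this stretch, with Pcdh17 between them. Other genes between them were not analysed here.

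The type II classical cadherins held 3 of the 7 lower calls and no higher one. Cdh8, known in mouse retina for directing axons of a bipolar cell type to its sublamina, had 8.29 and 15.1 CPM in GFP-positive cells, against 82.5 and 106.1 CPM in GFP-negative cells (log2 fold change -3.01 ± 0.39, edgeR adjusted p = 0.0146). Cdh12, a brain type II cadherin, had 10.7 and 2.59 CPM in GFP-positive cells, against 83.8 and 94.8 CPM in GFP-negative cells (log2 fold change -3.75 ± 0.58, edgeR adjusted p = 0.0262). Cdh10, which is known with Cdh6 and Cdh9 from direction-selective circuits of the mouse retina, had 1.88 and 4.04 CPM in GFP-positive cells, against 22.2 and 60.7 CPM in GFP-negative cells (log2 fold change -3.80 ± 0.62, edgeR adjusted p = 0.0310). For all of them the lowest GFP-negative library lay above the highest GFP-positive one. Cdh8 lies at chr8:99024471-99416471, Cdh10 at chr15:18818947-19014236 and Cdh12 at chr15:20449265-21589533. Cdh12 shares 198 exonic bases with Gm49685, which had 3 and 50 counts in GFP-positive libraries and 14 and 23 counts in GFP-negative libraries.

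Cdh20 and Cdh7, closely related type II genes on chromosome 1, had large fold changes that did not pass. Cdh20 had 3.19 and 1.09 CPM in GFP-positive cells, against 11.8 and 32.8 CPM in GFP-negative cells (log2 fold change -3.38 ± 0.71, edgeR adjusted p = 0.0752). Cdh7 had 7.52 and 0.48 CPM in GFP-positive cells, against 23.2 and 52.2 CPM in GFP-negative cells (log2 fold change -3.24 ± 0.87, edgeR adjusted p = 0.168), so its GFP-positive libraries were themselves 15.6-fold apart. Without GFP-positive replicate 2 Cdh7 passed the test, with an adjusted p of 0.0361, and without GFP-negative replicate 2 Cdh20 passed, with 0.0230. Cdh20 was also called with RLE scaling and by DESeq2, and Cdh7 by DESeq2.

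The other type II cadherins gave no call. Cdh6 had 129.5 and 92.0 CPM in GFP-positive cells and 113.9 and 141.6 CPM in GFP-negative cells, and Cdh22 had 117.3 and 64.9 CPM in GFP-positive cells and 116.1 and 192.2 CPM in GFP-negative cells. Their fractions overlapped. Cdh9, known in mouse retina for directing axons of another bipolar type, had a log2 fold change of 0.79 ± 0.39, with 48.3 and 33.6 CPM in GFP-positive cells and 17.3 and 30.0 CPM in GFP-negative cells, and no overlap. Cdh11, Cdh24 and Cdh18 had log2 fold changes of -0.87 ± 0.35, -0.54 ± 0.45 and -0.28 ± 1.04. Cdh5 (VE-cadherin), the junctional cadherin of endothelium, had 0 and 103 counts in GFP-positive replicates 2 and 3, against 0 and 2 counts in GFP-negative replicates 2 and 6, and Cdh19 had no count in any library, which allows up to 0.0631 to 0.0838 CPM by library.

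Cdh5 and Pcdh12 were thus detected at over 100 counts only in GFP-positive replicate 3, at 2.17 and 2.31 CPM. Among the endothelial markers, Cldn5, Tek, Emcn, Esam and Flt1 were also highest in that library, while Kdr and Pecam1 were not. Cldn5 was at 0.17 and 10.7 CPM in GFP-positive replicates 2 and 3, against 1.05 and 0 CPM in GFP-negative replicates 2 and 6. Tek was at 0 and 3.97 CPM in GFP-positive cells, against 0 and 0.11 CPM in GFP-negative cells. The sum of 11 endothelial and pericyte markers was 122.6 and 133.1 CPM in GFP-positive cells and 100.9 and 65.5 CPM in GFP-negative cells, most of it Kdr, and Emcn was at 0 in every library but GFP-positive replicate 3. The part of these cells in the counts of Cdh5 and Pcdh12 was not tested.

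In the fit used here, edgeR called none of the type I cadherins, and limma-voom called none either, 1 of the 3 tested had an unadjusted p below 0.05, and DESeq2 called 1. Cdh4 (R-cadherin), named after the retina, was that gene. It had 638.9 and 361.2 CPM in GFP-positive cells, against 131.2 and 146.3 CPM in GFP-negative cells, a 3.60-fold difference of the means with no overlap (log2 fold change 1.85 ± 0.39, edgeR adjusted p = 0.0755). edgeR called it with upper-quartile scaling (adjusted p = 0.0374), with library size only (0.0274) and with a stricter filter on low counts (0.0320). Cdh2 (N-cadherin), the main neuronal type I cadherin, had 192.7 and 104.7 CPM in GFP-positive cells, against 203.1 and 274.8 CPM in GFP-negative cells (log2 fold change -0.68 ± 0.38, edgeR adjusted p = 0.516). The length-scaled ratio of Cdh4 to Cdh2, chosen after the values were seen, was 3.68 and 3.84 in GFP-positive cells, against 0.72 and 0.59 in GFP-negative cells, so Cdh4 was above Cdh2 in each GFP-positive library and below it in each GFP-negative library. Cdh15 (M-cadherin), known from muscle, was low, with 0.96 and 1.05 CPM in GFP-positive cells and 1.53 and 3.32 CPM in GFP-negative cells. Cdh1 (E-cadherin) and Cdh3 (P-cadherin), which are epithelial, had counts in 1 GFP-negative library each, of 7 and 21, and were not tested.

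**Figure D2:**
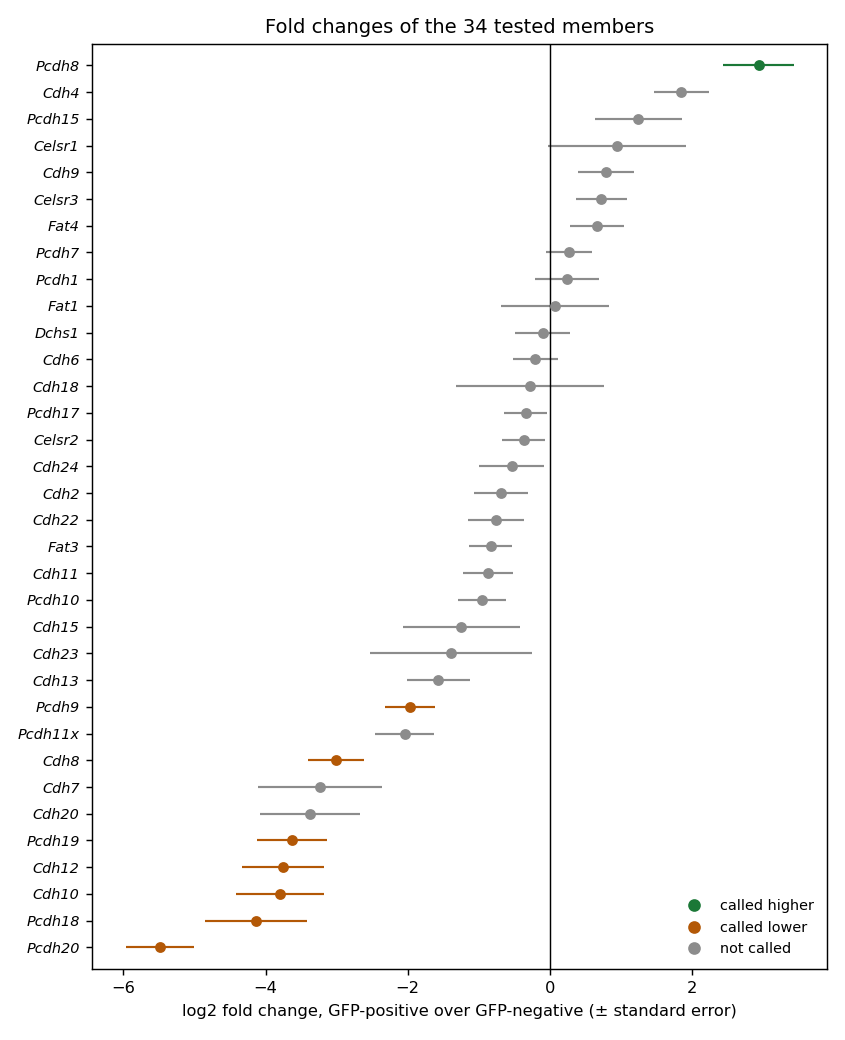
Fold change of the 34 tested members, as log2 of GFP-positive over GFP-negative with its standard error (n = 2 libraries per fraction), ordered from highest to lowest; green marks the call in the higher direction, orange the 7 calls in the lower direction and grey members not called. Values run from 2.93 for Pcdh8 to -5.49 for Pcdh20, and 24 of the 34 points lie below 0.

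Cdh13 (T-cadherin), which is held in the membrane by a lipid anchor and lacks a cytoplasmic tail, had 7.00 and 5.51 CPM in GFP-positive cells, against 18.0 and 19.1 CPM in GFP-negative cells (log2 fold change -1.57 ± 0.44, edgeR adjusted p = 0.183). Cdh23 and Pcdh15 together form the tip link of hair cells. Cdh23 was low, with 72 and 0 counts in GFP-positive and 51 and 105 counts in GFP-negative libraries, or 1.57 and 0 CPM in GFP-positive cells and 1.22 and 2.93 CPM in GFP-negative cells. Pcdh15, which photoreceptors also express, had 64.6 and 93.8 CPM in GFP-positive cells, against 55.5 and 11.2 CPM in GFP-negative cells (log2 fold change 1.24 ± 0.61, edgeR adjusted p = 0.455). The libraries ranked in the same order by Pcdh15 as by the summed rod markers, with GFP-positive replicate 3 highest and GFP-negative replicate 6 lowest, and the part of rods in its level was not tested. Without GFP-negative replicate 2 Pcdh15 passed the test, with an adjusted p of 0.0414. None of the 3 genes was called by edgeR or limma-voom, 1 had an unadjusted p below 0.05, and DESeq2 called Cdh13.

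The Celsr, Fat and Dachsous genes gave no call by edgeR, DESeq2 or limma-voom, and 1 of the 7 tested, Fat3, had an unadjusted p below 0.05. Fat3, known in mouse for keeping amacrine cells from growing an extra dendritic tree, had 90.4 and 89.9 CPM in GFP-positive cells, against 142.8 and 178.6 CPM in GFP-negative cells (log2 fold change -0.83 ± 0.30, edgeR adjusted p = 0.299). Celsr2 and Celsr3, which act in planar polarity and axon tracts, had log2 fold changes of -0.37 ± 0.30 and 0.72 ± 0.36, and Celsr1 was below 1 CPM in all libraries. The receptor and ligand pair Fat4 and Dchs1 had log2 fold changes of 0.66 ± 0.38 and -0.10 ± 0.39, and Fat1 one of 0.07 ± 0.76. Fat2, known from cerebellar granule cells, had 3 counts in 1 GFP-negative library and was not tested.

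Levels of different members were compared per kilobase of exon, as RPKM (CPM per kilobase of merged exons). In GFP-positive cells the order of mean RPKM was Pcdh8, Cdh4, Cdh22, Pcdh7 and Cdh2, and in GFP-negative cells it was Pcdh9, Cdh22, Pcdh19, Pcdh8 and Cdh2. Pcdh8 alone made up 56.1% and 46.3% of the summed RPKM of the 40 members in GFP-positive replicates 2 and 3, against 8.52% and 8.23% in GFP-negative replicates 2 and 6. Cdh4 made up 13.9% and 14.6% in GFP-positive cells, against 5.70% and 4.14% in GFP-negative cells. In the other direction, Pcdh9 made up 2.24% and 3.03% in GFP-positive cells, against 12.7% and 11.4% in GFP-negative cells, and Pcdh19 made up 0.60% and 0.72%, against 7.31% and 11.2%. These shares are not independent, because a larger share of Pcdh8 leaves less for the other members. Shares were also lower in GFP-positive cells for members that were not called. Cdh22 made up 5.02% and 5.13%, against 9.89% and 10.7% in GFP-negative cells, and Cdh2 made up 3.78% and 3.80%, against 7.94% and 7.00%.

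The summed level itself overlapped between the fractions, at 631.6 and 341.9 RPKM in GFP-positive cells and 317.2 and 486.8 RPKM in GFP-negative cells. Without Pcdh8 it was 277.1 and 183.6 RPKM in GFP-positive cells, against 290.2 and 446.8 RPKM in GFP-negative cells. Members above 1 RPKM numbered 25 and 22 in GFP-positive libraries and 29 in each GFP-negative library. With the length of the longest transcript in place of merged exons, the share of Pcdh8 was 51.7% and 41.4% in GFP-positive cells, against 7.07% and 6.90% in GFP-negative cells, and 7 of the 8 genes with the highest mean stayed among the 8 highest.

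**Figure D3:**
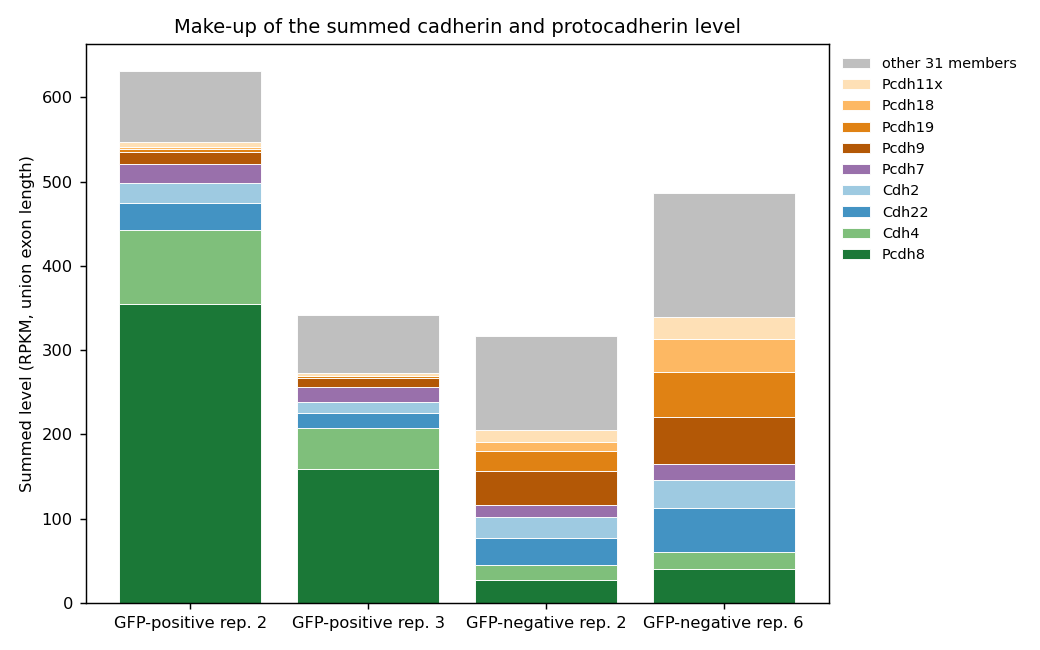
Summed RPKM of the 40 members in each library as stacked bars, with 9 members in colour and the other 31 in grey. The Pcdh8 segment takes 56.1% and 46.3% of the GFP-positive bars, against 8.52% and 8.23% of the GFP-negative bars, while the total heights of the bars of the fractions overlap.

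The 2 GFP-negative libraries differed from each other in a shared direction for the lower members. All 7 members that were lower in GFP-positive cells had more CPM in GFP-negative replicate 6 than in GFP-negative replicate 2, by 1.13-fold to 3.42-fold with a median of 1.37-fold. Of all 156 genes called lower, 141 did so, with a median of 1.61-fold, while 8400 of 17534 tested genes with a count in replicate 2 did so, with a median of 0.97-fold. GFP-negative replicate 6 was also the library with the least rod, cone and bipolar marker RNA and the most amacrine marker RNA. The sum of 12 amacrine markers was 2762 and 1877 CPM in GFP-positive cells, against 4127 and 6204 CPM in GFP-negative cells. Of these markers, 4 (Tfap2c, Gad1, Gad2 and C1ql2) were called lower in GFP-positive cells. Without these 4 the sums overlapped, at 2495 and 1746 CPM in GFP-positive cells and 2257 and 3229 CPM in GFP-negative cells. Most of these sums was Pax6, at 1972 and 1286 CPM in GFP-positive cells and 1469 and 2245 CPM in GFP-negative cells. Tfap2a, Tfap2b, Slc32a1, Stx1a and Meis2, which edgeR did not call, were each lower in GFP-positive cells without overlap. Among all 11 tested amacrine markers, 10 had an unadjusted p below 0.05, DESeq2 called 6 and limma-voom called 4. Of the 11 tested amacrine markers 1, Slc6a9, was above 0 in log2 fold change, with 85.8 and 74.7 CPM in GFP-positive cells, against 54.3 and 31.4 CPM in GFP-negative cells. The 8 Müller glia markers summed to 795 and 986 CPM in GFP-positive cells, against 1629 and 2014 CPM in GFP-negative cells, with Dkk3 called lower and 6 of the 8 above 0 in log2 fold change. Without Dkk3 the sums overlapped, at 551 and 855 CPM in GFP-positive cells and 621 and 437 CPM in GFP-negative cells. The 8 ganglion cell markers summed to 218.1 and 97.2 CPM in GFP-positive cells, against 303.6 and 352.6 CPM in GFP-negative cells. None was called by edgeR or limma-voom, while 3 had an unadjusted p below 0.05 and DESeq2 called 2. In log2 fold change, 2 of the 8 were above 0. Of these 2, Rbpms had 28.9 and 26.0 CPM in GFP-positive cells, against 10.1 and 7.35 CPM in GFP-negative cells. The part of these differences in the calls of the 7 lower members was not tested.

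With GFP-positive replicate 3 or GFP-negative replicate 6 left out, edgeR called none of the 34 members, while 16 and 14 of them had an unadjusted p below 0.05. Without GFP-positive replicate 2 it called 3 (Cdh7, Cdh12 and Pcdh20), and without GFP-negative replicate 2 it called 10, which added Cdh20, Pcdh11x and Pcdh15 and lost Pcdh8. Over these 4 fits the adjusted p ranged from 0.0197 to 0.136 for Cdh8, from 0.0245 to 0.174 for Cdh12 and from 0.0143 to 0.282 for Cdh10. It ranged from 0.00937 to 0.195 for Pcdh19, from 0.0143 to 0.356 for Pcdh18 and from 0.0344 to 0.386 for Pcdh9. Without a filter on low counts 4 members were called (Cdh8, Cdh12, Pcdh19 and Pcdh20), and with the legacy form of edgeR's estimation, tried after seeing the data, Pcdh20 alone was called. No called member changed direction in any of 13 alternative fits.

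**Figure D4:**
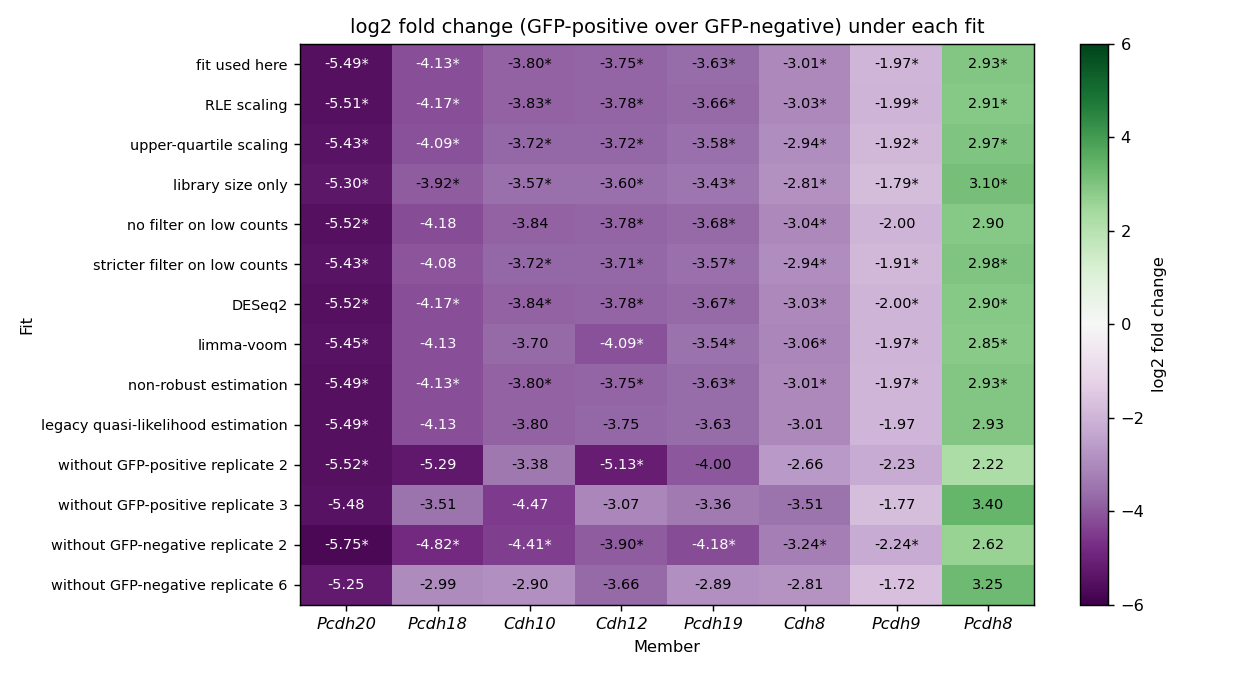
The log2 fold change (GFP-positive over GFP-negative) of the 8 called members under the fit used here and 13 alternatives, as colour and number, with an asterisk where the adjusted p is below 0.05. Pcdh20 keeps an asterisk in 11 of the 13 alternatives and Pcdh18 in 6, and Pcdh8 has none in the 4 fits that leave out a library.

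A further 67 genes were taken as partner genes, of which 55 were tested. They were genes that cadherins act through or with, other genes of the cadherin superfamily, and proteases that can act on cadherins. Of the tested partner genes, 1 was lower in GFP-positive cells and none was higher. It was Mmp9, a secreted metalloproteinase, with 1.31 and 2.65 CPM in GFP-positive cells, against 29.7 and 32.9 CPM in GFP-negative cells (log2 fold change -3.98 ± 0.50, edgeR adjusted p = 0.0125). Among all 55, 9 had an unadjusted p below 0.05 (16.4%), beside 12.6% of all tested genes, and the 1 call is 1.82% of them, beside 1.1% of all tested genes. DESeq2 called 3 and limma-voom 1.

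The cytoplasmic partners gave no call. Of 9 tested catenins none was called by edgeR, DESeq2 or limma-voom and 0 had an unadjusted p below 0.05. Ctnnb1 (beta-catenin) had 375.1 and 270.8 CPM in GFP-positive cells and 393.2 and 507.0 CPM in GFP-negative cells, a log2 fold change of -0.48 ± 0.36. Of 12 WAVE complex and protocadherin effector genes, none was called by any of these tools and 1 had an unadjusted p below 0.05. Brk1, a WAVE complex subunit, had 97.2 and 122.7 CPM in GFP-positive cells and 90.6 and 151.6 CPM in GFP-negative cells.

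Of 12 planar polarity genes edgeR and limma-voom called none, 1 had an unadjusted p below 0.05 and DESeq2 called 1. That gene was Fjx1, the mouse relative of the fly Golgi kinase that acts on Fat and Dachsous, with 7.50 and 10.3 CPM in GFP-positive cells, against 28.3 and 37.1 CPM in GFP-negative cells (log2 fold change -1.87 ± 0.40, edgeR adjusted p = 0.0788). Dvl1 (Dishevelled), the planar polarity gene with the highest mean RPKM over merged exons, had 167.1 and 146.5 CPM in GFP-positive cells and 169.0 and 93.0 CPM in GFP-negative cells. Of 7 tested tip link genes none was called by the 3 tools and 3 had an unadjusted p below 0.05, and Cib2 had 38.9 and 42.0 CPM in GFP-positive cells and 41.9 and 65.5 CPM in GFP-negative cells.

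Among 19 other genes of the cadherin superfamily, 9 were tested and 5 had no count. edgeR and limma-voom called none of the 9, 2 had an unadjusted p below 0.05, and DESeq2 called Clstn2, a calsyntenin of synapses with 2.08 and 4.52 CPM in GFP-positive cells, against 13.8 and 31.3 CPM in GFP-negative cells (log2 fold change -2.76 ± 0.60, edgeR adjusted p = 0.0841). Clstn1, the related kinesin-cargo adaptor, was abundant in both fractions, with 1491 and 1075 CPM in GFP-positive cells and 1599 and 1646 CPM in GFP-negative cells. Of the 6 proteases that can act on cadherins, edgeR called Mmp9 and no other.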

How the data were processed

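RNA of sorted retinal cells was made into 4 libraries with an ultra low input SMART-Seq kit, per the labels' protocols. The authors deposited raw counts per gene as integers, 41040667 to 44689917 in all per library. Per the submitters' processing notes, the tools include STAR 2.7.3a, limma, Trimmomatic and MultiQC, and the build is GRCm38. No source used here gives the counting tool, annotation or strand setting, so overlapping and antisense genes may share counts. A second deposited table of scaled values was not used.

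Counts were tested with edgeR 4.0.16 (R 4.3.3): TMM scaling, filterByExpr (minimum count 10, minimum total 15), glmQLFit in its non-legacy form with robust estimation (the default of this version is the legacy form), and glmQLFTest for GFP-positive over GFP-negative, over 17940 genes with 2 residual degrees of freedom. A call is a Benjamini-Hochberg adjusted p below 0.05. CPM uses effective library sizes; RPKM divides by merged exon length from GENCODE mouse release 21, which held 55230 of the 55471 gene IDs. A count of 3 is the floor, for counting error only; the reads carry no molecular identifiers and are not independent molecules. Replicates of a fraction are taken as separate animals, and p-values measure the spread between these libraries. Values in every library are given for called members, members beyond 1 in log2 fold change, up or down, with separate fractions, the 8 highest by RPKM, Gbx2, called partners and the highest-level gene of each partner group; other genes shown in this way were chosen after their values were seen. Values of 1 gene under this rule are not reported here. The members and lists were chosen with earlier results of these data known. Alternatives were other scalings, other filters, DESeq2 1.42.0, limma-voom (limma 3.58.1), non-robust and legacy estimation (the last added after seeing the data) and leaving out each library. The fits were also run on simulated counts, which held no differences in cell make-up between libraries.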

Additional observations from a re-analysis of the deposited data

How the results depend on the processing

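The count of genes called was 198 in the reported fit, 106 with no filter on low counts, 859 with DESeq2, 92 with limma-voom and 48 with legacy quasi-likelihood estimation, the last chosen after seeing the data. Leaving out each library in turn gave 1 (without GFP-negative replicate 6) to 336 (without GFP-negative replicate 2), with 5 without GFP-positive replicate 3 and 108 without GFP-positive replicate 2; a lone library is then assumed to vary like the others. Of the cadherin members 8 were called, against 4 with no filter, 13 with DESeq2 and 1 (Pcdh20) with legacy estimation, and 0 to 10 when a library was left out. Of the partner genes 1 was called, against 3 with DESeq2 and 0 with legacy estimation (8 of 55 at an unadjusted p below 0.05), and 0 to 2 when a library was left out. The cause of these changes was not tested. Of 438 member values under the alternatives, 375 kept direction and side of the threshold, 37 lost the threshold, 16 gained it and 10 changed sign, all 10 in uncalled members. Leaving out each library gave -0.49 to 0.014 for Cdh6, -3.96 to 0.67 for Cdh18 (0.19 without GFP-negative replicate 2), -0.31 to 0.62 for Pcdh1, -1.57 to 0.81 for Fat1 (-0.13 without GFP-negative replicate 6) and -0.68 to 0.29 for Dchs1 (0.11 without GFP-negative replicate 6). Fat1 was -0.37 with limma-voom and Dchs1 0.062 with library size only. The median log2 fold change of all genes, 0.04 in the reported fit, was 0.21 with library size only and 0.14 without GFP-negative replicate 2. With 2 libraries a fraction and 0 to 110 counts, Cdh1, Cdh3, Cdh5, Cdh19, Fat2 and Pcdh12 were not tested in the reported fit. Whether they differ between the fractions is therefore left undecided. No paired analysis was possible because the fractions share only replicate number 2, so a block for the replicate would leave no residual degrees of freedom.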
